A study of Saccharomyces cerevisiae with 8 samples.

Results

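The regions described here are the stretches of yeast DNA between convergent genes, where a gene on the Watson strand is followed by a gene on the Crick strand so that both stop codons face the gap, and the members are the Rpb1 summits that lie in them. A summit was counted when it lay outside every protein-coding gene of the R64 annotation, with the nearest such gene to its left on the Watson strand and the nearest to its right on the Crick strand. This was done on chromosomes II, V and XI to XVI, the 8 of 16 chromosomes on which the deposited positions matched that annotation. Of 2837 summits on these chromosomes, 543 lay between convergent genes, 163 and 146 in the 6 h libraries of replicates 1 and 2, and 121 and 113 in the 0 h libraries of replicates 1 and 2. The lists held 4742 summits over all chromosomes.

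RNA polymerase II reads through the stop codon and the poly(A) site of a gene before it is released, so that polymerase is found past the coding sequence of active genes. Between convergent genes the 3′ flanks of both partners meet in the same stretch of DNA, and polymerases that have run past either stop codon can be found there. Rpb1 is the largest subunit of RNA polymerase II, and its immunoprecipitation shows where the enzyme sits on DNA but not which strand it transcribes.

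All samples came from the AM1003 strain of budding yeast, in which a galactose-driven HO endonuclease cuts a chromosome to start break-induced replication. The sample titles label all of them WT. The 6 h group was collected after 6 h in 2% galactose, and the 0 h group before galactose was added to cells grown in YEP with raffinose. Each group had 2 immunoprecipitated libraries made with a BioLegend antibody against RPB1, and the 4 input libraries of the design have no values analysed here. Carbon source, time in culture and the break changed together between the groups and cannot be told apart. Replicates are not said to be separate cultures, so differences between them may be technical only. The depth of the libraries is unknown, and polymerase may be present where no summit was called.

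The match between summit positions and gene ends differed between chromosomes, and this touches every count below. When the summits of a chromosome were moved in steps of 100 bp over 500 bp to either side, the share between convergent genes was highest at a shift of 0 on XII, XIII and XVI, of 100 bp to the right on II and V, and of 100 bp to the left on XV. On XI and XIV it was highest at 300 bp to the right, where it was 15.4% and 23.8%, against 8.61% and 8.18% at the positions as deposited. Landmark genes, such as those of ribosomal proteins, were met best at a shift of 0 on II, V, XII, XIII and XVI, of 200 bp to the right on XI and XIV, and of 200 bp to the left on XV. Distances to stop codons therefore carry an uncertainty of up to about 200 bp on 6 chromosomes and 300 bp on XI and XIV. The distance between summits of different libraries in the same region does not depend on it.

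Rpb1 summits were several times denser between convergent genes than elsewhere, and a larger share of summits lay there at 6 h. Convergent regions made up 4.48% of the length of the 8 chromosomes, in 871 regions with a median length of 237 bp. They held 21.4% and 22.2% of the summits at 6 h and 17.0% and 16.0% at 0 h. The means were 21.8 ± 0.56% at 6 h and 16.5 ± 0.72% at 0 h (SD, n = 2 each), a difference of 5.28 percentage points with no overlap between the groups. The exact permutation test over the 4 libraries gave p = 0.333, two-sided, the smallest p that 2 libraries against 2 allow. Without chromosomes XI and XIV the difference was 5.95 percentage points. It was 2.92 percentage points with all summits moved 100 bp to the left, and 0.69 and 2.57 with moves of 250 bp to the left and right.

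Per kb of DNA, convergent regions held 0.530 and 0.475 summits at 6 h and 0.394 and 0.368 at 0 h. Tandem regions, where the downstream gene points the same way, held 0.172 and 0.168 summits per kb at 6 h and 0.125 and 0.107 at 0 h. The density inside genes was 0.0844 and 0.0678 per kb at 6 h and 0.0890 and 0.0934 at 0 h, and divergent regions, which face 2 start codons, were the sparsest at 0.0264 and 0.0281 per kb at 6 h and 0.0446 and 0.0396 at 0 h. The order of convergent, tandem, genic and divergent density was the same in each of the 4 libraries.

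Counted per stop codon rather than per kb, convergent and tandem regions differed little. A convergent region is flanked by 2 stop codons and a tandem region by 1. Convergent regions gave 9.36 and 8.38 summits per 100 flanking stop codons at 6 h and 6.95 and 6.49 at 0 h. Tandem regions gave 9.74 and 9.49 at 6 h and 7.07 and 6.08 at 0 h. The number of convergent summits per tandem summit was 1.04 and 0.954 at 6 h, against 1.06 and 1.15 at 0 h, a difference of -0.11 between the means (exact permutation test, p = 0.333). That difference was above 0 under 4 of the alternative settings. Of all summits outside genes, 48.5% and 46.2% were convergent at 6 h and 46.2% and 48.1% at 0 h, and these ranges overlap (exact permutation test, p = 0.667). The higher share of convergent summits at 6 h went along with a higher share of tandem summits, 20.6% and 23.3% at 6 h and 16.0% and 13.9% at 0 h.

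**Figure D1:**
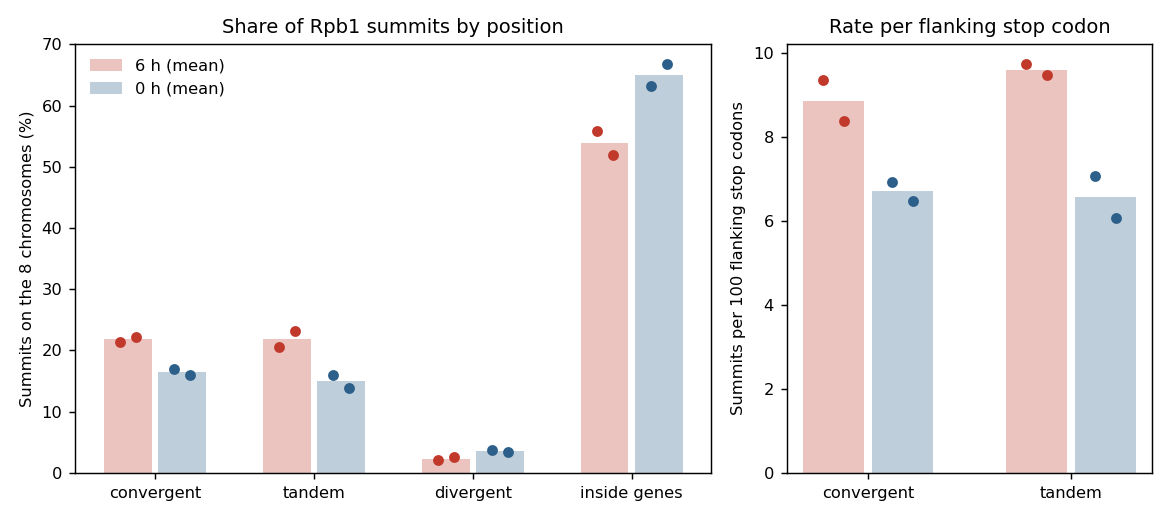
The left panel plots the percentage of Rpb1 summits on the 8 chromosomes that lay between convergent, tandem or divergent genes or inside genes, and the right panel plots summits per 100 flanking stop codons. Points are libraries and bars the mean of 2 libraries, with 6 h to the left of 0 h. The convergent share was 21.4% and 22.2% at 6 h, against 17.0% and 16.0% at 0 h. Rates per stop codon were close to those of tandem regions.

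Summits between convergent genes lay a short way past a stop codon, as the size of the gaps allows. The gaps that held them had median lengths of 328 and 301.5 bp at 6 h and 341 and 311 bp at 0 h. The median distance to the nearer stop codon was 79 and 82 bp at 6 h and 93 and 79 bp at 0 h. The means of 80.5 ± 2.1 bp at 6 h and 86 ± 9.9 bp at 0 h (SD, n = 2 each) overlap, and the exact permutation test gave p = 1. Between 52.9% and 62.3% of summits lay within 100 bp of a stop codon in the 4 libraries, and 86.3% to 89.3% lay within 200 bp. As a fraction of the gap, from 0 at a stop codon to 0.5 in the middle, the median position was 0.248 and 0.289 at 6 h, against 0.278 and 0.255 at 0 h, which also overlap. An even spread over the gap would give 0.25, so by this measure the summits were no closer to a stop codon than an even spread. The placement uncertainty given above is large against these gaps, so the comparison cannot exclude that summits lay closer to stop codons.

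Neither side of the gap was preferred throughout. The left, Watson-strand gene was the nearer one for 87 and 83 summits at 6 h and for 61 and 52 at 0 h. The right, Crick-strand gene was the nearer one for 75 and 63 summits at 6 h and for 60 and 61 at 0 h. The farthest summits lay between NCE103, which encodes carbonic anhydrase, and YNL035C on chromosome XIV, in a gap of 8042 bp that also holds 2 tRNA genes. There 6 h replicate 1 had a summit 3623 bp and 6 h replicate 2 one 2372 bp from the nearer stop codon, and neither 0 h library had one. The highest deposited scores in that gap were 3.53 and 6.61 in the 2 libraries, low in their lists.

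**Figure D2:**
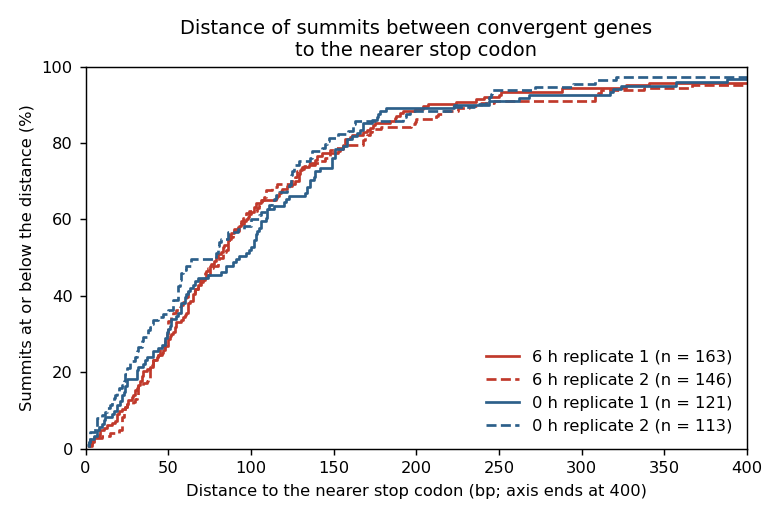
Cumulative percentage of the summits between convergent genes against the distance to the nearer stop codon in bp, with 1 line per library and the horizontal axis ending at 400 bp. The lines for 6 h and 0 h run together, with medians of 79 and 82 bp at 6 h and 93 and 79 bp at 0 h.

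The deposited score of a summit is a significance, which the peak caller writes as its −log10, and was used to rank summits only within a library. Scores of different libraries that stand side by side below are not on a common scale. The median convergent summit stood at the 58.8 and 58.3 percentile of its own library at 6 h and at the 54.9 and 48.8 percentile at 0 h. Tandem summits had medians at the 60.4 and 58.5 percentile at 6 h and at the 55.3 and 53.6 percentile at 0 h, above the convergent median in each of the 4 libraries. Summits inside genes had medians at the 42.3 and 39.8 percentile at 6 h and at the 46.3 and 48.8 percentile at 0 h. The convergent median was 58.5 ± 0.36 at 6 h and 51.9 ± 4.3 at 0 h (SD, n = 2 each), a difference of 6.68 (exact permutation test, p = 0.333).

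Over the 871 convergent regions, 250 (28.7%) held a summit in at least 1 library, against 15.8% of tandem regions. A region was called held at 6 h only when both 6 h libraries and neither 0 h library had a summit in it, and held at 0 h only by the reverse. By these rules 36 regions (4.13%) were held at 6 h only, 15 (1.72%) at 0 h only and 40 (4.59%) in all 4 libraries. The same rules gave 2.61%, 0.744% and 2.3% of tandem regions, and 2.35%, 0.922% and 2.65% of all regions between genes. The convergent counts without chromosomes XI and XIV were 33, 12 and 39. Of the 250 regions, 91 were held in a single library, so a large part of the list was not seen again in a replicate.

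The 6 h replicates shared more regions with each other than with either 0 h library, which was not so for 0 h replicate 1. The 6 h libraries shared 109 regions, 67.7% of those in replicate 1 and 75.2% of those in replicate 2. The 0 h libraries shared 72, or 59.5% and 64.3% of their regions. A 6 h and a 0 h library shared 64 to 76 regions, which was 41.6% to 49.0% of the 6 h list and 57.1% to 62.8% of the 0 h list. In the regions that a pair of libraries shared, the summits lay a median of 42 bp apart within 6 h, 49.5 bp within 0 h and 37 to 44 bp between the times. Between the times, 53.1% to 57.7% of the shared regions had summits within 50 bp of each other, in gaps that themselves limit the distance. In the 40 regions held throughout, all 4 summits lay within 50 bp in 9 and within 100 bp in 21. Both 6 h summits lay left of both 0 h summits in 7, right of them in 6, and the positions overlapped in 27.

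**Figure D3:**
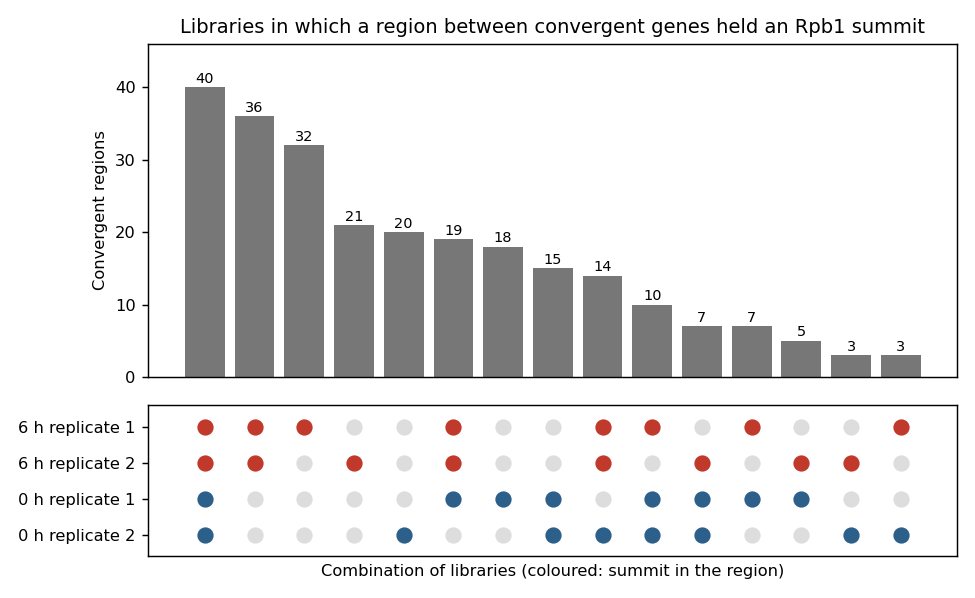
Number of convergent regions (bars) for each combination of the 4 libraries that had a summit in the region (filled dots below the bar, 6 h rows above 0 h rows). The combination of all 4 libraries was the most frequent with 40 regions, followed by both 6 h libraries alone with 36, while both 0 h libraries alone had 15.

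Longer gaps more often held a summit. Of 234 regions of up to 150 bp, 11.5% held one in any library, against 28.4% of 229 regions of 150 to 250 bp, 38.6% of 215 regions of 250 to 400 bp and 38.9% of 193 longer ones. Of the 36 regions held at 6 h only, 1 was at most 150 bp long, 10 were 150 to 250 bp, 16 were 250 to 400 bp and 9 were longer.

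The regions were next grouped by their flanking genes. Ribosomal protein genes, which are transcribed at very high rates in growing yeast, flanked 40 regions, and 31 of these held a summit in any library. Of the 40, 20 were held in both 6 h libraries and 9 in both 0 h libraries, where all convergent regions gave 12.5% and 8.27%. They supplied 9 of the 36 regions held at 6 h only, 2 of the 15 held at 0 h only and 7 of the 40 held throughout. The 831 regions with no ribosomal protein gene gave 27 held at 6 h only and 13 held at 0 h only.

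Ribosome biogenesis genes, which encode factors that process ribosomal RNA and assemble the subunits, flanked 27 regions. Of these, 8 (29.6%) were held in both 6 h libraries and 2 (7.41%) in both 0 h libraries, against 12.5% and 8.27% of all convergent regions. By the exclusive rules 5 (18.5%) were held at 6 h only and 0 at 0 h only, against 4.13% and 1.72%. The 5 were the gaps of UTP7, RLP24, CBF5, NOP12 and RCL1, facing SER3, TEN1, RFX1, NGL1 and MDM12. Some were weak, with 6 h scores of 2.92 and 5.35 at RCL1 and 3.96 and 4.94 at NOP12. In 0 h replicate 2 a summit lay 6 bp inside UTP7 and another 34 bp inside RLP24. CBF5 held an inside summit in both 0 h libraries. UTP7 and RCL1 act in small-subunit processing, CBF5 is the pseudouridine synthase of box H/ACA particles, and RLP24 and NOP12 act on the large subunit. The 27 regions held a summit in 13 and 11 cases at 6 h and in 3 and 5 cases at 0 h, which do not overlap. The counts over all 871 convergent regions, 161 and 145 at 6 h and 121 and 112 at 0 h, do not overlap either. These 5 were named because their count was small, after their values were seen.

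The other lists were small and are read against the same shares of all convergent regions, 4.13% held at 6 h only, 1.72% at 0 h only, 12.5% in both 6 h libraries and 8.27% in both 0 h libraries. At these sizes 1 region held by an exclusive rule is already more than the share of all regions would give. Amino acid synthesis genes flanked 15 regions, with 3 held at 6 h only and 0 at 0 h only. Translation factor genes flanked 9, of which 5 were held in both 6 h libraries and 2 in both 0 h libraries. Glycolysis genes flanked 4, with 1 held at 6 h only and 0 at 0 h only, and galactose regulon genes 2, with 1 held at 6 h only. Genes of respiration and the TCA cycle flanked 15, with 2 held at 6 h only, 2 at 0 h only, and equal counts of 4 in both 6 h and both 0 h libraries. Cell wall genes flanked 14 regions, with 5 held in both 6 h libraries, 1 in both 0 h libraries and 0 by either exclusive rule. Sterol and fatty acid synthesis genes flanked 11, with 1 held at 6 h only, and chaperone genes 11, with 1 in each direction. Histone genes flanked 5, transporter genes 9 and aminoacyl-tRNA synthetase genes 6, with 0 regions of these held by either exclusive rule. The 715 regions beside none of the lists gave 15 (2.1%) held at 6 h only and 10 (1.4%) at 0 h only.

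At ribosomal protein genes the summit was more often past the stop codon at 6 h and inside the gene at 0 h. Each of the 40 genes was followed through its own coding span, the gap beyond its stop codon and the last 250 bp of the opposite gene. In 159 of 160 combinations of gene and library exactly 1 of these places held a summit, and in 0 combinations did 2 or more. The summit lay between the genes at 24 and 22 genes at 6 h and at 14 and 11 genes at 0 h. It lay inside the ribosomal protein gene at 11 and 13 genes at 6 h and at 25 and 27 genes at 0 h. It lay in the last 250 bp of the opposite gene at 5 genes in each 6 h library and at 1 gene in each 0 h library. These 3 sets of counts do not overlap between the times, but they depend on each other, since 159 of 160 combinations had exactly 1 place. The same direction was seen more widely. Of all summits on the 8 chromosomes, 55.9% and 52.0% lay inside genes at 6 h and 63.2% and 66.7% at 0 h. Over all convergent regions, 161 and 145 held a summit at 6 h and 121 and 112 at 0 h.

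Measured from the ribosomal protein stop codon, the median best summit lay at 149 and 153.5 bp at 6 h and at -185 and -172 bp at 0 h, where negative values lie inside the gene. The difference between the means was 329.75 bp (exact permutation test, p = 0.333). Among the 39 genes with a summit in all 4 libraries, both 6 h summits were downstream of both 0 h summits in 24 and upstream in 2. Over all 309 genes beside a convergent region that could be followed this way, 31.1% had both 6 h summits downstream and 18.8% upstream. Among the 270 that do not encode ribosomal proteins these were 72 and 56 genes. Their median best summit lay 139.5 and 130.5 bp past the stop codon at 6 h and 128 and 84.5 bp past it at 0 h. The difference between ribosomal protein genes and other genes was not tested.

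Since XI and XIV are placed less well, the same counts were taken over the 33 ribosomal protein genes on the other chromosomes. These still include XV, where landmark genes were met best at a shift of 200 bp to the left. The summit lay between the genes at 22 and 19 of them at 6 h and at 13 and 10 at 0 h. Of 32 genes with a summit in all 4 libraries, 19 had both 6 h summits downstream and 2 upstream. Most ribosomal protein genes of yeast exist as near-identical pairs, and how reads that fit both copies were handled is not given in the sources used here, so a summit inside such a gene may belong to its copy. RPL25 and RPL3, described below, are single genes.

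**Figure D4:**
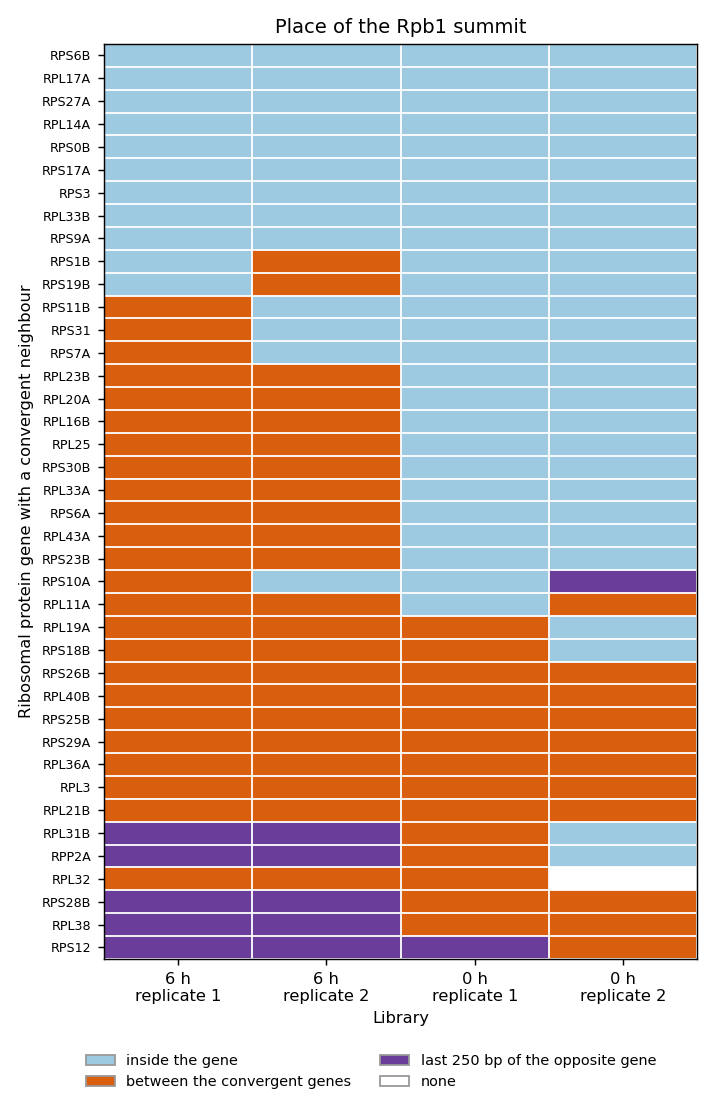
Place of the Rpb1 summit (colour) for the 40 ribosomal protein genes with a convergent neighbour (rows) in each library (columns, 6 h left of 0 h). The summit lay between the genes in 24 and 22 rows at 6 h and in 14 and 11 rows at 0 h, and inside the gene in 11 and 13 rows at 6 h and in 25 and 27 rows at 0 h.

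In 9 of these genes the summit lay in the gap in both 6 h libraries and inside the gene in both 0 h libraries. RPL25, which encodes a large-subunit protein, had its summit 250 and 212 bp past the stop codon at 6 h, with scores of 54.2 and 64.2. At 0 h the RPL25 summit lay 251 and 248 bp inside the gene, with scores of 57.5 and 54.5. The facing gene, MDH2 for cytosolic malate dehydrogenase, ends at the other side of a 596 bp gap. RPL43A showed 75 and 59 bp past its stop codon at 6 h and 391 and 208 bp inside the gene at 0 h. RPL23B, across the gap from the osmosensor gene SHO1, showed 79 and 81 bp past its stop codon at 6 h and 431 and 35 bp inside the gene at 0 h. RPL23B had summits of similar rank at both times. They stood at the 88.7 and 92.9 percentile of their libraries at 6 h and the 90.4 and 89.4 percentile at 0 h.

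RPS6A and RPL20A, on the right of their gaps, and RPL33A, on the left of its gap, gave the same order. RPS6A, which faces the glutathione reductase gene GLR1, had summits 199 and 214 bp past its stop codon at 6 h and 612 and 634 bp inside the gene at 0 h. RPL20A, which faces the mitochondrial carrier gene YHM2, had them 224 and 280 bp past its stop codon at 6 h and 533 and 534 bp inside at 0 h. RPL33A showed 241 and 255 bp past at 6 h and 471 and 450 bp inside at 0 h. At each of these genes the replicates lay far closer to each other than the time points did.

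At some of the 9 genes a summit lay so near the stop codon that its side rests on the uncertain annotation match. This also holds for RPL43A and RPL23B, given above. RPS30B, beside the actin assembly gene LAS17, had summits 168 and 182 bp past its stop codon at 6 h and 1 and 160 bp inside the gene at 0 h. RPS23B, beside the elongation factor gene SPN1, had summits 111 and 189 bp past at 6 h and 19 and 22 bp inside at 0 h. RPL16B lies on XIV, beside TOM7 for a subunit of the mitochondrial import channel, and had summits 130 and 209 bp past its stop codon at 6 h and 279 and 445 bp inside at 0 h.

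Other ribosomal protein genes held the summit in the same place throughout. In 9 genes, such as RPS9A, RPS0B and RPS3, it was inside the gene in all 4 libraries, and 5 of these 9 lie outside XI and XIV. At RPS0B, however, summits were 432 and 340 bp inside the gene at 6 h and 755 and 757 bp at 0 h. They too lay closer to the stop codon at 6 h. RPS9A went the other way, with summits 720 and 547 bp inside at 6 h and 537 and 482 bp at 0 h. In 7 genes the summit was between the convergent genes in all 4 libraries. RPS31, which encodes a ubiquitin fusion protein, had 1 library in the gap, with a score of 80.5 at 62 bp past the stop codon in 6 h replicate 1. Its summits in 6 h replicate 2 and in the 0 h replicates were 145, 134 and 138 bp inside the gene.

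At 5 genes, RPS28B, RPL38, RPL31B, RPP2A and RPS12, the summit was in the last 250 bp of the opposite gene in both 6 h libraries, and at 0 of the 40 in both 0 h libraries. Such a summit is not counted in the gap. RPL38 faces the peroxisomal gene PEX30 across 356 bp. From the RPL38 stop codon the summit lay at 445 bp in both 6 h libraries, past the PEX30 stop codon, with scores of 37.2 and 53.4. At 0 h it lay at 177 and 159 bp, in the gap, with scores of 37.9 and 72.8. RPS28B had its summit 594 and 600 bp past the stop codon at 6 h, inside YLR264C-A, and 355 and 460 bp past it at 0 h. At RPS12, which faces the checkpoint gene RAD17 across 145 bp, the summit was 175 and 181 bp past the stop codon at 6 h and 160 and 2 bp past it at 0 h.

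The strongest region held at 6 h only was that of GAL2, the galactose permease gene, and SRL2 on chromosome XII. The gap of 457 bp between YLR081W (GAL2) and YLR082C (SRL2) had summits 234 and 217 bp past the GAL2 stop codon at 6 h, close to the middle. They lie at positions 292170 and 292153 of the deposited lists, for which no genome build is stated. Their scores of 86.0 and 147 stood at the 99.5 and 100 percentile of the 2 libraries, and neither 0 h library had a summit in the gap or within 1000 bp of it. The other convergent region of the galactose regulon lies between GCY1, a glycerol dehydrogenase gene regulated by Gal4, and the profilin gene PFY1. It had summits with scores of 40.5 and 54.2 at 6 h, 124 and 152 bp past the GCY1 stop codon. At 0 h, replicate 2 had a summit 79 bp past it with a score of 7.21, so this region was not held at 6 h only. In 0 h replicate 1 a summit with a score of 6.42 lay 45 bp inside GCY1.

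Of the 10 regions held at 6 h only with the highest ranks, 8 had a ribosomal protein gene on 1 side, against 9 of all 36. The 10 highest-ranked regions held in all 4 libraries were similar, with 7 beside such a gene. The remaining top regions held at 6 h only were GAL2-SRL2 and the gap between YKL154W and GPM1. GPM1 encodes the glycolytic phosphoglycerate mutase, and YKL154W a subunit of the signal recognition particle receptor. In their gap of 1306 bp on XI, which also holds a tRNA gene, the 6 h summits lay 143 and 308 bp past the GPM1 stop codon with scores of 51.5 and 65.0. At 0 h the summits were 292 and 124 bp inside GPM1, with scores of 12.7 and 19.5. BLI1-FBA1, beside the aldolase gene, had a summit in the gap in 1 library of each time. It lay 65 bp past the FBA1 stop codon in 6 h replicate 1 and 97 bp past it in 0 h replicate 1. In 6 h replicate 2 a summit with a score of 108 lay 158 bp inside FBA1. In 0 h replicate 2 one with a score of 34.7 lay 426 bp inside it.

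**Figure D5:**
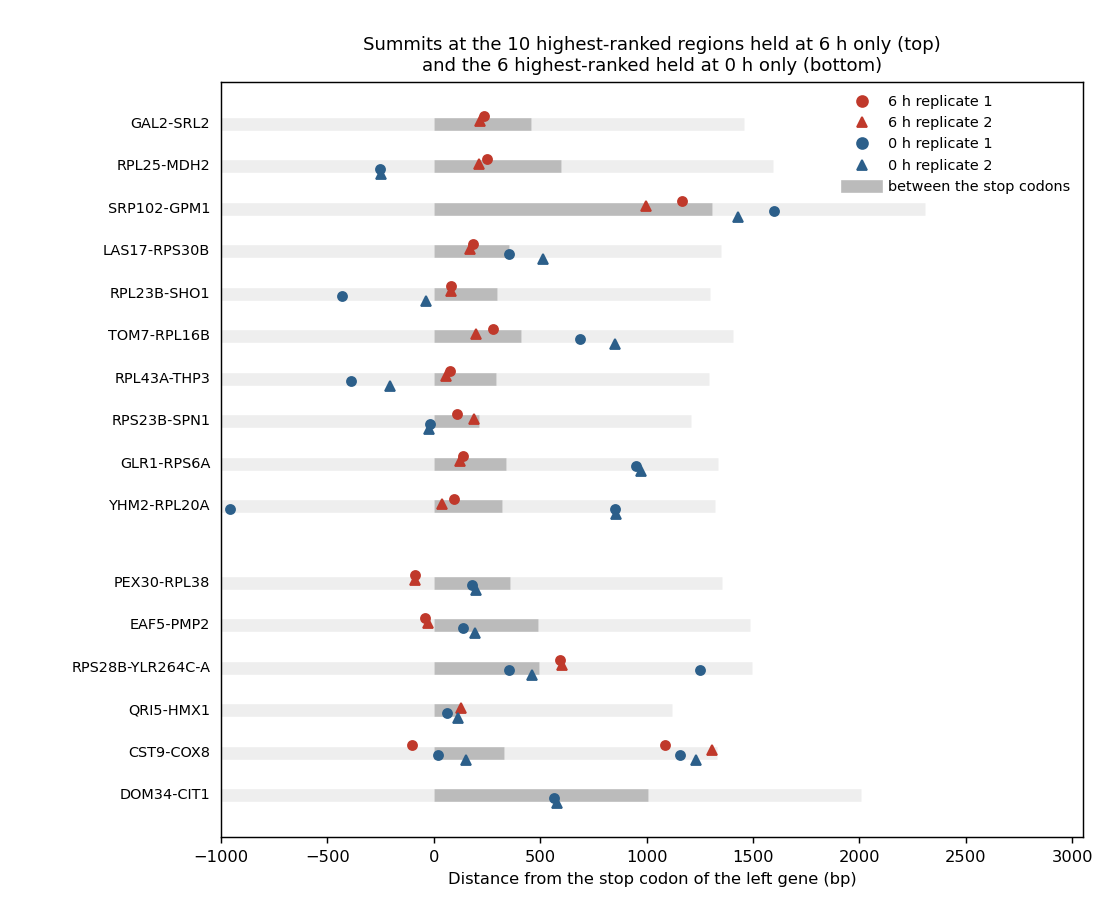
Summit positions in bp from the stop codon of the left gene for the 10 highest-ranked regions held at 6 h only (upper block) and the 6 highest-ranked held at 0 h only (lower block). The dark bar is the gap between the stop codons, the pale bars reach 1000 bp into the neighbours whatever their length, and symbols are libraries (red 6 h, blue 0 h); at GAL2-SRL2 there are 6 h summits only, at 234 and 217 bp, while at RPL25-MDH2 the 0 h summits lie left of the gap.

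A summit inside a flanking gene at 0 h was frequent beside the regions held at 6 h only. In 15 of these 36 regions a flanking gene held an inside summit at 0 h only, by the same rule over libraries, against 5.63% of all convergent regions. These were the 9 with a ribosomal protein gene and 6 of the 27 others. In the reverse direction, 4 of the 15 regions held at 0 h only had a flanking gene with an inside summit at 6 h only, against 5.74% of all convergent regions. These regions were picked by the summits in their gaps, so the counts are a description. Among the 109 regions held in both 6 h libraries, the gap summits of 28 lay over 250 bp from any 0 h summit, and those of 22 over 500 bp.

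The 6 highest-ranked regions held at 0 h only were mixed. At PEX30-RPL38 and RPS28B-YLR264C-A the 6 h summits lay in the opposite gene, as given above. At EAF5-PMP2, between genes for a subunit of the NuA4 acetyltransferase and a regulator of the plasma membrane proton pump, the 6 h summits were 42 and 25 bp inside EAF5 with scores of 42.7 and 48.9. The 0 h summits there were 136 and 192 bp past the EAF5 stop codon with scores of 29.7 and 22.7. At these 3 regions a summit was thus called at both times, on different sides of a stop codon.

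QRI5-HMX1, beside the heme oxygenase gene HMX1, had 0 h scores of 12.6 and 18.04 in a gap of 118 bp, the shortest of the 6. In 6 h replicate 2 a summit with a score of 4.30 lay 7 bp inside HMX1, and 6 h replicate 1 had none within 1000 bp. CST9-COX8, beside a cytochrome c oxidase subunit gene, had 0 h scores of 11.8 and 11.7. In 6 h replicate 1 a summit with a score of 5.39 lay 104 bp inside CST9. DOM34 and CIT1 flank the centromere of XIV, with a gap of 1005 bp. DOM34 encodes a ribosome rescue factor and CIT1 mitochondrial citrate synthase. Their gap held summits 443 and 427 bp past the CIT1 stop codon at 0 h, with scores of 10.5 and 7.01, and no 6 h summit lay in it or within 1000 bp of it. CIT1 itself also held an inside summit in both 0 h libraries.

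The regions held throughout were led by RPL3, a single-copy large-subunit gene, and YNG1, a subunit of the NuA3 acetyltransferase. Their gap of 229 bp had summits 146 and 169 bp past the RPL3 stop codon at 6 h and 167 and 116 bp past it at 0 h. The scores were 87.0 and 104 at 6 h, against 65.7 and 66.5 at 0 h, between the 95.5 and 99.6 percentile of their lists. PTR2-RPL40B, between the peptide transporter gene and a ubiquitin fusion gene, had summits 66 and 92 bp past the PTR2 stop codon at 6 h and 58 and 92 bp past it at 0 h. RPL21B-ATP4, beside an ATP synthase subunit gene, had them 160 and 95 bp past the RPL21B stop codon at 6 h and 164 and 126 bp past it at 0 h. In none of these 3 gaps were the time points separated by position. DED1, which encodes an RNA helicase of translation initiation, faced GEP3 with summits 188 and 41 bp past the GEP3 stop codon at 6 h, against 36 and 235 bp at 0 h.

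Among translation factor genes, RPG1 for a subunit of initiation factor 3 faced the cell wall gene ECM33 across 640 bp. The gap had summits with scores of 24.5 and 73.3 at 6 h. At 0 h, only replicate 1 had a summit in the gap, with a score of 48.9. In 0 h replicate 2 a summit with a score of 36.0 lay 931 bp inside ECM33. STM1, a ribosome-bound protein gene, faced PCD1 with scores in the gap of 21.3 and 17.6 at 6 h and 19.7 in 0 h replicate 2. In 0 h replicate 1 a summit with a score of 21.5 lay 327 bp inside STM1. The regions with the most summits were GCD11-CHO1, between the initiation factor 2 gamma and phosphatidylserine synthase genes, and FAA4-RKR1. In each of them a library held up to 2 summits. GCD11-CHO1 was weak, with its best scores at 3.99 and 6.05 at 6 h and 6.80 and 5.63 at 0 h.

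Some gaps also contain genes for small nucleolar RNAs, which guide the modification of ribosomal RNA and are themselves made by RNA polymerase II. There were 9 such genes in 7 gaps, and all 7 gaps were held in both 0 h libraries and 6 of them in all 4 libraries. The share of all convergent regions held in both 0 h libraries was 8.27%. The 7 gaps were long, however, from 683 to 3766 bp against a median of 237 bp over all. Of the 193 convergent regions over 400 bp, 25.9% and 21.2% held a summit in the 0 h libraries. Ribosomal protein genes RPS26B, RPS29A, RPL36A and RPS25B also flank some of the 7. In RPS26B-PMD1 the SNR4 gene lies 387 to 572 bp past the RPS26B stop codon. The summits there were 157 and 156 bp past that stop codon at 6 h, before SNR4, and 609 and 582 bp past it at 0 h, beyond SNR4. RPS26B-PMD1 was thus held throughout while its summit sat in different places at the 2 times.

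RPS29A-STE23 has SNR34 at 359 to 561 bp from the RPS29A stop codon. Its summits were at 72 and 72 bp at 6 h, and at 598 and 47 bp at 0 h, so the 0 h replicates disagreed. RPL36A-CMC4 has SNR11 at 365 to 622 bp, with summits at 671 and 87 bp at 6 h and 640 and 488 bp at 0 h. In MIN3-SSO2, summits lay inside or near SNR83 at both times. Over the 9 genes, a summit lay within 100 bp of 3 and 3 genes at 6 h and of 6 and 5 at 0 h. No rate was taken for other sites in the gaps, so these counts are a description only. The limit of 100 bp is also below the placement uncertainty of up to about 200 bp. The gap of MID2 and RPS25B, 3766 bp long, holds SNR61, SNR55 and SNR57 as well as a tRNA gene. Its summits were 1176 and 1248 bp past the RPS25B stop codon at 6 h, against 754 and 1177 bp at 0 h.

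Genes for tRNAs, which are made by RNA polymerase III, lay in 26 gaps, of which 11 held a summit, 4 were held at 6 h only and 0 at 0 h only. These are 42.3% held in any library and 15.4% held at 6 h only, against 28.7% and 4.13% of all convergent regions. Of all convergent regions, 1.72% were held at 0 h only. Some gaps with a tRNA gene are long, such as the 8042 bp of NCE103-YNL035C, and the comparison was not matched for length. Of the 193 convergent regions over 400 bp, 38.9% held a summit in any library and 9 were held at 6 h only.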

How the data were processed

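Rpb1 immunoprecipitation was analysed in 4 libraries, 2 at 6 h and 2 at 0 h, grouped by sample titles and treatments. Per the submitters' processing notes, MACS2 2.2.7.1, SAMtools 1.10, Bowtie2 2.2.4 and fastp 0.20.1 were used. Build, peak threshold and any control for peak calling are not stated in the labels or lists. The deposited lists are 1 per library, unpooled, and hold summit positions and a score that the authors' peak caller wrote as −log10 of p or q, not normalized between libraries. It ranked summits within a library only. Genes and strands came from RefSeq's R64 table, with 3432 protein-coding genes used. No genome was given, so no sequence is printed. Classification was tested on simulated data. Tests were exact permutations over 4 libraries in Python 3.11.15 with pandas 2.3.3 and NumPy 2.4.6.

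Named regions were the 10 held at 6 h only, 6 at 0 h only and 10 in all 4 libraries with the highest mean score percentile, galactose regulon regions, the 2 with most summits, the farthest, and up to 4 per list of ribosomal protein, translation factor and glycolysis genes. Members and the 13 gene lists were chosen with earlier results of these data known. Rates per stop codon, ratios to tandem regions, places of summits around genes, and settings without ribosomal protein regions or without XI and XIV were added after seeing the data. Alternatives were the better-scoring 50% of summits, shifts of 100 and 250 bp, a margin of 100 bp, dropped chromosomes and left-out libraries.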

Additional observations from a re-analysis of the deposited data

How the results depend on the processing

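The higher convergent share at 6 h, the rate per kb and the rate per stop codon kept their direction in every alternative run, but their size depended on the placement of genes. The share difference, 5.28 in the report, was 2.92 and 7.13 with shifts of 100 bp to the left and right, 0.69 and 2.57 with 250 bp to the left and right, 10.02 with the better-scoring 50% of summits, and 4.77 to 5.78 without each library in turn. Of 150 alternative values, 109 kept direction or stayed within 1.5 times. Both counts include the replicate block described below, which by construction cannot change a difference between means. The difference in median distance turned to 4.75 bp with the better-scoring 50% of summits, 5.25 and 14 bp with shifts of 100 and 250 bp to the right, 7.5 bp without chromosomes II, V and XII, 2.75 bp without XI and XIV, and 0.5 bp without ribosomal protein regions. It was -12.5 to 1.5 bp without each library. The relative position difference became -0.0162 with the better-scoring 50% and -0.0163 with 250 bp to the left, and was -0.0185 to 0.022 without each library. The score percentile difference was -1.12 with 250 bp to the right. The difference in the convergent percentage of intergenic summits was -0.175 with 100 bp to the right, -2.48 without XI and XIV, -0.976 without ribosomal protein regions, and -0.932 to 1.38 without each library. The convergent to tandem ratio difference was 0.00323 with the better-scoring 50%, 0.0105 and 0.100 with 100 and 250 bp to the left, and 0.0840 without II, V and XII.

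Regions held at 6 h only, 36 in the report, were 12 and 21 with shifts of 250 bp to the left and right, 23 without II, V and XII, 22 with no 0 h summit within 500 bp, and 50 to 68 without each library. Regions held at 0 h only, 15 in the report, were 7 with the better-scoring 50%, 7 without II, V and XII, and 22 to 35 without each library. Regions held in all 4, 40 in the report, were 18 with the better-scoring 50%, 13 and 25 with 250 bp to the left and right, 26 without II, V and XII, 81 with 100 bp past a stop codon added, and 47 to 59 without each library. A rule over fewer libraries or a smaller genome is easier or harder to meet by construction, and for the remaining changes the cause was not tested. The times share replicate numbers, and same-numbered libraries deviated together with a correlation of 0.0208 over regions. With 2 libraries per time this value cannot show whether they are paired. A replicate block gave mean counts within pairs of 83, 46.5 and 70, each pair having 1 library per time, and left the differences between means as they were.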
